A study of Mus musculus with 9 samples.

Results

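Open chromatin around 10 muscle genes was compared between wild-type (WT) and *Atrx* knockout (KO) mesenchymal progenitor cells (MPCs). The genes were *Myod1*, *Myf5*, *Myf6*, *Myog*, *Pax3*, *Pax7*, *Mef2c*, *Des*, *Acta1* and *Myh3*. A consensus region belonged to a gene when its nearest protein-coding start site, in the GENCODE M21 annotation of the mouse genome mm10, was a start site of that gene. This gave 93 of the 97338 consensus regions. A consensus region is a merged stretch of touching ATAC-seq peaks that held a peak in at least 2 of 3 libraries of any line. *Mef2c* held 38 of the 93 regions and *Pax3* held 28, so 27 were left for the other 8 genes. *Myh3* held 8, *Myod1* 5, *Myf5*, *Des* and *Acta1* 3 each, *Myog* and *Pax7* 2 each and *Myf6* 1.

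ATAC-seq reads where a transposase can cut chromatin, and a peak marks a stretch with more cuts than its background. The cells were C3H/10T1/2, an established mouse line of mesenchymal progenitor type, in 3 libraries each of WT cells and of the *Atrx* KO clones B10 and G7. Per the study's methods, control cells received Cas9 without a guide RNA, and cells were sorted one by one after transfection. Each KO line is a single clone, and the clones were made with different guide RNAs, so a difference between a clone and WT cannot be told apart from a difference between any clones of this line. The same 3 WT libraries served as the reference for each clone. ATRX is a chromatin remodeller that helps to keep heterochromatin in place, and peak lists cannot report whether its protein is made.

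Skeletal muscle identity is set by a small group of DNA-binding proteins. PAX3 and PAX7 mark muscle precursors, MYF5 and MYOD1 commit cells to the lineage, and MYOG and MYF6 (also called MRF4) drive differentiation, with MEF2C as a partner. *Des*, *Acta1* and *Myh3* encode desmin, skeletal alpha-actin and embryonic myosin heavy chain, parts of the muscle fibre. C3H/10T1/2 is the line in which MyoD was first shown to convert fibroblast-like cells into muscle, and enhancers far from *Myod1* and *Myf5* are known to control them.

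The strength of a region is given as a rank, the percentile of the −log10 q-value of its best peak among all peaks of its own library, with 100 the strongest. A region counted as gained in a clone if 2 or 3 of the clone's libraries held a peak there and no WT library did, and as lost if this was the other way round. The 37 muscle gene regions with a peak in all 9 libraries were tested by their ranks with limma, fitted over all 47431 such regions. Libraries held from 76385 to 88535 peaks. The depth of each library is unknown, as the methods give only an average read number, so a missing peak means not detected. A low rank marks a peak close to the caller's q threshold of 0.05. The labels do not say that the libraries of a line came from separate cultures, so p-values measure only the spread between these libraries, which may be technical.

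The sequences below are shown for the regions on which the results turn. Each is the 201 bases centred on the median summit, on the plus strand of the GRCm38.p6 reference (the mm10 assembly, from C57BL/6J mice, whereas the cells are of C3H origin). Capitals mark exact matches on either strand to CAGCTG (an E-box bound by muscle factors), TGANTCA (AP-1), CCTTTGT (SOX), GGAATG (TEAD) or MEF2 (CTA and TAG with 4 A or T bases between). A match is a description and not a bound site. The first pair lies upstream of *Myod1*, at chr7:46337590-46337790 and chr7:46353998-46354198.

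Myod1, 38.1 kb upstream: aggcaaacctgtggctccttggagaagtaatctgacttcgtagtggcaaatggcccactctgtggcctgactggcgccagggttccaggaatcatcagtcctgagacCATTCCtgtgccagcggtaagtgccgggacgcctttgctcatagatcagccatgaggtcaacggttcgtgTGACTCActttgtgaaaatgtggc

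Myod1, 22.2 kb upstream: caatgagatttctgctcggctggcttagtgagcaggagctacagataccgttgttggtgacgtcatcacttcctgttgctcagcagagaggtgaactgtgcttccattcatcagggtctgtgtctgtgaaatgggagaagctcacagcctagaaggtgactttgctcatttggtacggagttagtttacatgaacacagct

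The next come from a region gained in both clones near *Myf5* (chr10:107389667-107389867), the region nearest to the *Myog* start site (chr1:134288370-134288570) and the *Pax3* region with the largest difference in B10 (chr1:78016468-78016668).

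Myf5, 96.2 kb downstream: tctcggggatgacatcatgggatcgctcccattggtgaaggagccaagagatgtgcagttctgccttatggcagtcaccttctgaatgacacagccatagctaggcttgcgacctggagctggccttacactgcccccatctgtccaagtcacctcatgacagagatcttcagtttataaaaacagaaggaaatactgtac

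Myog, 1.2 kb upstream: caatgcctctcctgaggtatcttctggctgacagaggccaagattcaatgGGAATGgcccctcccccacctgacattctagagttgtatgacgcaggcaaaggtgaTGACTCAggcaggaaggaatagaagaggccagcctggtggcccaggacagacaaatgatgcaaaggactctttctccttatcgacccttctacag

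Pax3, 179.8 kb downstream: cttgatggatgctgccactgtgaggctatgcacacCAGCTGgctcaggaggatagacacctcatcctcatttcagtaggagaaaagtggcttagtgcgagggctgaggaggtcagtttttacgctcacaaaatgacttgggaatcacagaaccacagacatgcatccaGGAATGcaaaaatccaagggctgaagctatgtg

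The last pair lies side by side downstream of *Mef2c*. The first was gained in both clones (chr13:83741828-83742028) and the second was lost in both (chr13:83745024-83745224).

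Mef2c, 88.7 kb downstream, gained: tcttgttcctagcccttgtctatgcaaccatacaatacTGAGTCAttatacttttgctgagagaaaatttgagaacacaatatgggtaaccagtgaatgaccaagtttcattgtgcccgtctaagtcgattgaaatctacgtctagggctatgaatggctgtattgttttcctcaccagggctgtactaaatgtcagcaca

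Mef2c, 91.9 kb downstream, lost: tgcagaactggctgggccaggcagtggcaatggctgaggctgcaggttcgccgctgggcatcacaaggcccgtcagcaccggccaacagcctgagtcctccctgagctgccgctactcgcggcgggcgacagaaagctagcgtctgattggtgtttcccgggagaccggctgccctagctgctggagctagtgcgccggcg

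The start sites of most muscle genes held no peak in any line. Of the 10 genes, 2 (*Pax3* and *Mef2c*) had a peak within 1 kb of the start site of a coding transcript, in all 9 libraries. The other 8 had none in any library there, whether WT or KO, though *Des* had one at the start of another of its transcripts, inside the gene. For scale, 13064 of 21829 protein-coding genes (59.8%) had a consensus region within 1 kb of a start site. At the *Pax3* start site (chr1:78196513-78197613, on the minus strand) the ranks were 77.5, 75.4 and 75.2 in WT, 82.5, 81.0 and 78.7 in B10 and 81.9, 77.3 and 78.6 in G7. The B10 libraries lay above the WT libraries, but the difference of 4.71 ± 2.07 (SE) did not pass the test (limma, adjusted p = 0.156), and nor did that of G7 (3.26 ± 2.07, adjusted p = 0.361). *Mef2c* (chr13:83504034-83667080) has 23 annotated start sites, and at the strongest of them (chr13:83523712-83525250) the ranks were 77.3, 77.2 and 69.0 in WT, 81.2, 77.5 and 76.9 in B10 and 74.3, 75.8 and 75.3 in G7. These overlapped between the lines, with limma adjusted p of 0.369 for B10 and 0.922 for G7. At a weaker start site (chr13:83502406-83503159) WT replicate 1 alone of the WT libraries held a peak (6.88), while ranks were 30.1, 51.3 and 20.2 in B10 and 30.4, 24.1 and 5.98 in G7, which the rule did not call.

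The muscle gene regions were therefore mostly distal. Their median distance to a start site was 41.9 kb against 20.9 kb for all consensus regions, and 27 of 93 (29.0%) lay beyond 100 kb against 16.9% of all regions. By position, 38 were intergenic, 36 intronic, 13 within 1 kb of the start of any annotated transcript (5 of them at a coding start site of *Pax3* or *Mef2c*), 5 over other exons and 1 over an untranslated region. Many therefore lie inside or next to other genes, and nearness is the only link to the muscle gene. A peak was found in 67, 64 and 64 of the 93 regions in WT, in 73, 74 and 70 in B10 and in 63, 60 and 60 in G7. The B10 libraries lay above all WT libraries and the G7 libraries below them. Over all consensus regions the share with a peak ran from 74.6 to 76.1% in WT, whereas it was 78.0 to 82.6% for B10 and 74.1 to 75.7% for G7.

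In B10, 15 of the 93 regions were gained (16.1%, against 10.4% of all consensus regions) and 7 were lost (7.53% against 7.58%). In G7 the counts turned around, with 6 gained (6.45% against 5.69%) and 13 lost (14.0% against 7.42%). In both clones, 3 were gained (3.23% against 2.97%) and 6 were lost (6.45% against 4.36%). The gains in B10 came mainly from *Mef2c*, which held 10 of the 15. Without *Mef2c*, 5 of 55 regions were gained and 4 lost in B10, while 3 were gained and 9 lost in G7.

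These counts also moved with single libraries. Gained regions in B10 numbered 9, 7 and 9 without B10 replicate 1, 2 or 3 (against 6.98%, 6.41% and 7.86% of all regions), and lost regions 4 without WT replicate 2 or 3 (4.06% and 4.21%). In G7, 5 regions were lost without WT replicate 3, where the share of all regions was also lower at 4.15%, while 10 were gained without WT replicate 1 (9.46%) and 3 without G7 replicate 2 (3.35%). In both clones, 7 were gained without WT replicate 1 (5.87% of all regions), 1 was gained without G7 replicate 2 (2.01%) and 3 were lost without WT replicate 3 (2.31%). Leaving out a library changes what the rule asks of its line, and the share over all regions moved with each of these counts.

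**Figure D1:**
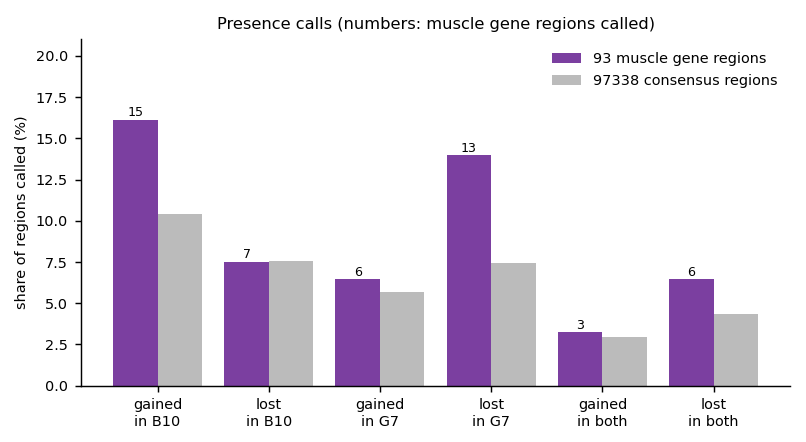
Share of regions called gained or lost by presence of peaks (y axis, percent) in B10, in G7 and in both clones, for the 93 muscle gene regions (purple, with the number called above each bar) and for all 97338 consensus regions (grey). The muscle gene bars stand highest for gains in B10 (15 regions) and losses in G7 (13 regions).

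Of the 37 regions open in all 9 libraries, 5 ranked higher in B10 than in WT (background 11%) and 2 lower (background 5.37%). In G7, 1 ranked higher (5.39%) and 2 lower (4.82%). In both clones, 1 ranked higher (3.81%), near *Myod1*, and 1 lower (1.66%), near *Acta1*. Between the clones, 2 ranked higher in B10 than in G7 (4.21%) and 1 lower (2.39%). The median difference over the 37 was 2.13 percentile points in B10 and -2.78 in G7, against 0.70 and -0.035 over all shared regions. With the replicate number as a block, since same-numbered libraries deviated together, the counts were 7 higher and 4 lower in B10, and 2 higher and 6 lower in G7. The background under that replicate block was larger too, at 21.4%, 12.1%, 13.2% and 13.4%. Between the clones it gave 8 regions higher and 3 lower in B10 than in G7, against 14.3% and 6.58% of all shared regions. Without WT replicate 1, 5 regions ranked lower in G7 (4.54% of all) and 2 higher (8.39%). Without WT replicate 3, or without B10 replicate 2, 3 ranked higher (6.72% and 5.72%) and 1 lower in B10 (2.82% and 3.84%), and without B10 replicate 3, 3 ranked higher (6.90%).

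**Figure D2:**
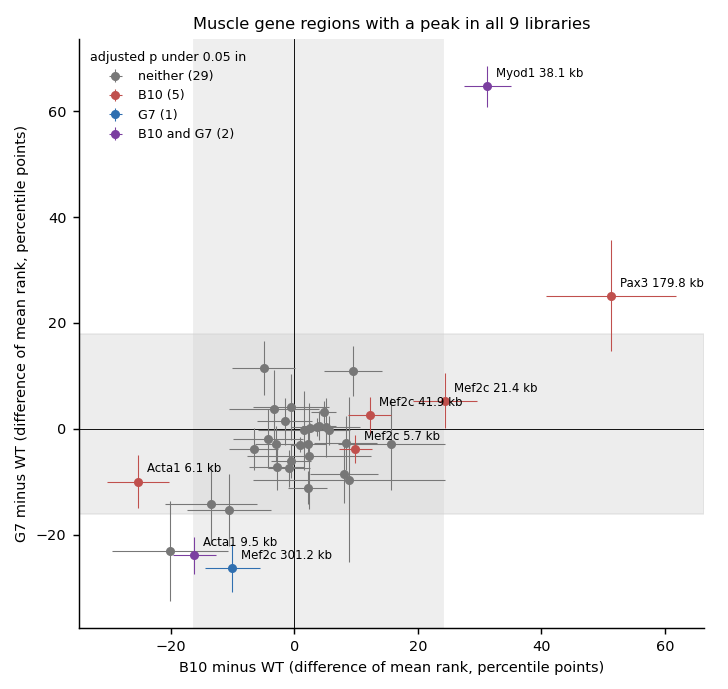
Difference of mean rank from WT in B10 (x axis) and in G7 (y axis), in percentile points, for the 37 muscle gene regions with a peak in all 9 libraries. Bars are standard errors from limma, bands hold the central 90% of all 47431 shared regions, labels give the distance to the nearest start site of the gene, and the *Myod1* region stands alone at 31.2 and 64.7.

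The largest rank difference among the 37 lay upstream of *Myod1* (chr7:46376474-46379099, plus strand), a master regulator of muscle commitment. The intergenic region at chr7:46337265-46338349, 38.1 kb before the start site (10.7 kb from the nearest gene of any kind, the noncoding RNA gene *1700025L06Rik*), had ranks of 28.7, 31.9 and 28.8 in WT. They were 61.2, 66.6 and 55.1 in B10 and 95.0, 94.5 and 94.0 in G7. No ranks overlapped between the 3 lines. The region rose by 31.2 ± 3.81 points (SE) in B10 (limma, adjusted p = 0.00106) and by 64.7 ± 3.81 in G7 (adjusted p = 0.000139), and the difference of B10 minus G7 was -33.5 ± 3.81 (limma, adjusted p = 0.00162). The rise in G7 was the 5th largest of 47431 shared regions. The authors' fold enrichment at the peak was 6.51 to 7.57 in WT, 10.2 to 12.7 in B10 and 14.7 to 15.7 in G7, so the order of the lines was the same on that scale. Both rises passed the test under every alternative run. Its printed sequence holds 1 AP-1 match and 1 TEAD match, and neither a CAGCTG E-box nor a MEF2 match.

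The region at chr7:46353490-46354293, 22.2 kb upstream, was gained in G7 with ranks of 37.0, 32.7 and 26.4 and had no peak in WT or B10. Between these, a weak region (chr7:46341474-46341804) was lost in both clones, with ranks of 3.12 and 8.24 in WT replicates 2 and 3. Over the end of *Myod1* itself, where its 3′ untranslated region lies (chr7:46378724-46379659), ranks were 56.7, 71.0 and 64.9 in WT, 49.8, 60.4 and 67.5 in B10 and 75.9, 76.7 and 74.3 in G7. G7 lay above both other lines without overlap, yet its difference of 11.5 ± 5.09 from WT did not pass (limma, adjusted p = 0.189). That from B10 passed only with the replicate block (B10 minus G7 -16.5, adjusted p = 0.0891, and 0.0148 with the block). The last *Myod1* region (chr7:46380535-46380885) held a peak in 2 WT, 2 B10 and 3 G7 libraries, with ranks of 13.2 to 32.1.

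Around *Myod1* the medians were close to 0. Of the 150 other shared regions within 2 Mb, 6 ranked higher and 8 lower in B10, and 8 higher and 2 lower in G7, with medians of 0.67 and 0.51 points. Closer by, 4 regions credited to the inner ear gene *Otog* lie 8.75 to 56.7 kb further upstream, and were examined after their values were seen. Of these, the one at chr7:46321244-46321671 had ranks of 22.9 and 24.8 in WT replicates 2 and 3 and no peak in replicate 1, 10.2 to 22.7 in B10 and 42.4, 64.3 and 67.6 in G7. Another (chr7:46285393-46285870) held a peak in all 3 G7 libraries (38.7 to 39.8), in 1 WT library (9.66) and in no B10 library. At chr7:46279741-46280532 the lines overlapped, with 48.7 and 47.3 in WT replicates 2 and 3, 22.6 to 48.1 in B10 and 42.5 to 60.6 in G7. At chr7:46328029-46328512 only G7 replicates 2 and 3 held a peak (26.4 and 14.2).

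*Myf5* (chr10:107482908-107486134) and *Myf6* (chr10:107492853-107494737) lie next to each other on the minus strand and had 4 regions between them. A region inside an intron of *Lin7a* (chr10:107389524-107389917), 96.2 kb downstream of the *Myf5* start site, was gained in both clones. Its ranks were 60.1, 57.6 and 60.7 in B10 and 26.1 and 19.3 in G7 replicates 1 and 2, with no peak in WT or in G7 replicate 3, so the G7 libraries lay below those of B10. Its fold enrichment was 12.5 to 14.3 in B10. The printed sequence holds none of the 5 marked motifs. Nearer to *Myf5*, a weak region 6.8 kb downstream (chr10:107479056-107479319) was gained in B10, with ranks of 13.4 and 6.23. Beside it, chr10:107479561-107480063 had ranks of 50.9, 47.7 and 40.4 in WT, 61.8, 59.6 and 50.5 in B10, and 34.2 and 21.7 in G7 replicates 1 and 2.

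The *Myf6* region, in an intron of *Ptprq* 88.7 kb upstream (chr10:107583476-107583891), held a peak in all 3 WT libraries (28.7, 28.6 and 24.8), in B10 replicate 2 (3.42) and in G7 replicate 3 (11.6), which the rule did not call. Gains in B10 were frequent throughout this stretch of chromosome 10. Of 123 other regions within 2 Mb of *Myf5*, 54 were gained in B10 (43.9%, against 14.9% of the chromosome) and 3 lost. Gains in G7 were also more frequent there, with 16 regions (13.01%, against 7.7% of the chromosome). Of the 123, 14 were gained in both clones (11.4%, against 4.74% of the chromosome). The part of this in the *Myf5* gains was not tested.

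*Myog* (chr1:134289989-134292548), which drives the differentiation of myoblasts, had 2 regions. The one 1.2 kb upstream of the start site (chr1:134288191-134288749) held a peak in 8 of 9 libraries, with ranks of 23.0 and 30.8 in WT, 13.4, 37.3 and 25.1 in B10 and 34.2, 19.3 and 28.5 in G7. The lines overlapped, and the missing peak was that of WT replicate 3. This sequence holds 1 AP-1 and 1 TEAD match. The other, in an intron of *Ppfia4* (chr1:134302568-134303090), was lost in B10, with ranks of 49.3 and 3.12 in WT replicates 1 and 2 and 21.6 in G7 replicate 1.

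*Pax7* (chr4:139737062-139833528), the marker of muscle stem cells, had 2 intergenic regions upstream, and neither held a peak in G7. At chr4:139858597-139858952, 25.1 kb upstream, ranks were 64.3, 57.5 and 61.2 in WT and 34.6, 33.6 and 45.4 in B10. All B10 ranks lay below those of WT, and the region was lost in G7. The other (chr4:139877390-139877605, 43.9 kb upstream) was lost in both clones, with ranks of 28.6 and 34.2 in WT replicates 2 and 3. Within 2 Mb of *Pax7*, 37 of 282 other regions were lost in B10 (13.1%) and 31 in G7 (11.0%). Over the whole chromosome, this window included and the *Pax7* regions left out, the shares were 7.83% and 6.71%.

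**Figure D3:**
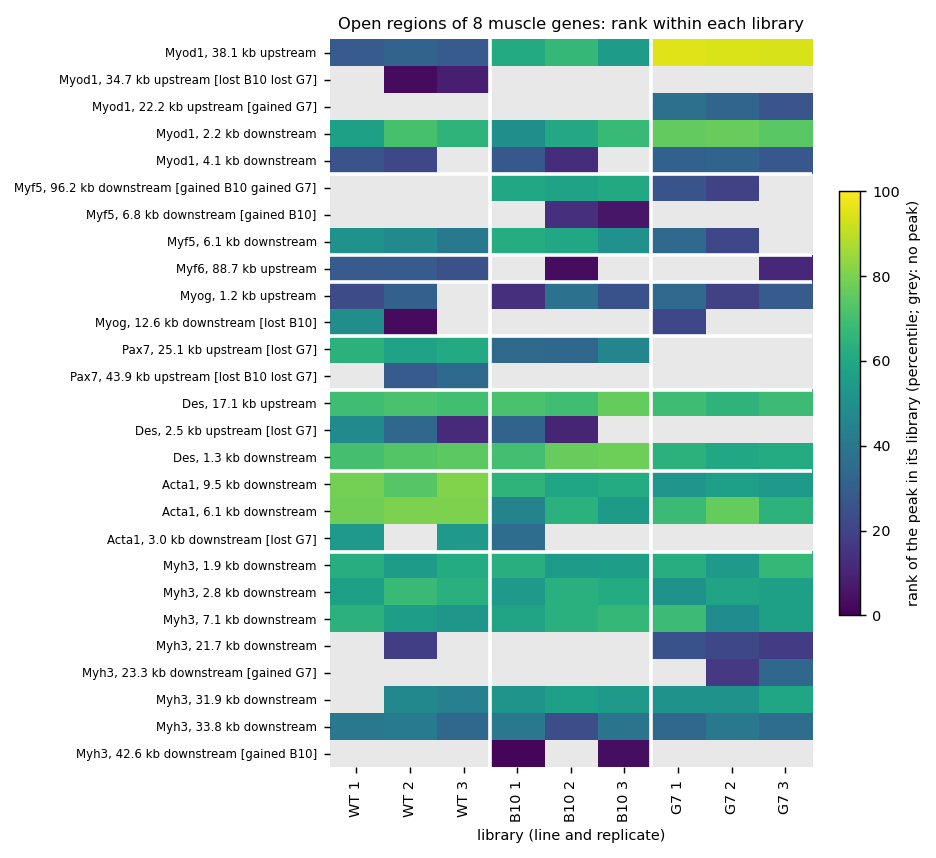
Rank of the best peak (colour, percentile within the library, grey where no peak was called) in each of 9 libraries (columns) for the 27 regions of 8 muscle genes (rows, with the distance to the start site and the presence calls). The top row, *Myod1* 38.1 kb upstream, runs from 28.7 to 31.9 in WT to 94.0 to 95.0 in G7, and the *Acta1* rows are strongest in WT.

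*Pax3* (chr1:78101267-78197134), which acts in early muscle precursors and in the neural crest, had 28 regions, 13 of them open in all 9 libraries. The intergenic region at chr1:78016117-78017028, 179.8 kb downstream of the start site, had ranks of 51.6, 9.66 and 15.8 in WT, 78.4, 75.7 and 76.6 in B10 and 63.3, 53.5 and 35.7 in G7. Every B10 library lay above all others, whereas G7 overlapped WT. The rise in B10 was 51.2 ± 10.5 points (limma, adjusted p = 0.0107), the 104th largest of 47431 shared regions. The difference in G7 was 25.2 ± 10.5 (limma, adjusted p = 0.164, and 0.0274 with the replicate block), and that of B10 minus G7 was 26.1 ± 10.5 (limma, adjusted p = 0.181, and 0.0285 with the block). Its sequence holds 1 CAGCTG E-box and 1 TEAD match.

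The strongest *Pax3* region was intergenic, 138.2 kb downstream (chr1:78057601-78058647), with ranks of 90.9 to 94.6 in WT, 95.0 to 95.6 in B10 and 92.2 to 93.8 in G7. Its small difference in B10 passed only with the replicate block (2.53 points, limma, adjusted p = 0.0854, and 0.0304 with the block). The same was true in B10 for the region 39.6 kb downstream (5.59 points higher, adjusted p = 0.189 and 0.0430 with the block, limma), and in both clones for the regions 29.2 kb downstream and 37.1 kb upstream. The last had ranks of 72.8, 44.9 and 38.9 in WT, 40.5, 20.0 and 35.6 in B10 and 37.7, 19.3 and 30.5 in G7, with replicate 1 the highest in each line. Its differences were -20.2 in B10 and -23.0 in G7 (limma, adjusted p = 0.181 and 0.156, and 0.0270 and 0.0190 with the block). For the region 29.2 kb downstream they were -13.5 and -14.3 (limma, adjusted p = 0.255 and 0.261, and 0.0305 and 0.0299 with the block).

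By presence, 4 of the 28 *Pax3* regions were lost in G7 and 0 gained, against 7.42% and 5.69% of all consensus regions. In B10, 2 were gained and 1 lost, against 10.4% and 7.58%. The region lost in both clones, 231.5 kb downstream in an intron of the noncoding RNA gene *Gm28387* (chr1:77964789-77965353), had ranks of 26.3 and 3.28 in WT. The other losses in G7, at 300.1, 237.2 and 136.2 kb downstream, had WT ranks of 13.3 to 35.1 and kept a peak in 1 to 3 B10 libraries. The gains in B10, at 326.4 and 162.8 kb downstream, had ranks of 1.31 to 31.2. The region 18.6 kb upstream (chr1:78215760-78217492) was not called, since WT replicate 1 held a weak peak there (9.89), yet it had ranks of 26.8, 40.1 and 54.4 in B10 and 62.6, 63.0 and 58.4 in G7. Around *Pax3*, gains in B10 were frequent, with 34 of 127 other regions within 2 Mb (26.8%, against 11.1% of the chromosome).

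*Mef2c*, whose product works with the MyoD family on muscle genes and also acts in heart and brain, had the most regions. Of the 38, 10 were gained and 3 lost in B10, against 10.4% and 7.58% of all consensus regions. In G7, 3 were gained and 4 lost, against 5.69% and 7.42%. The strongest of the called *Mef2c* regions lay downstream, where 7 regions span 35.1 kb. Their centres lie 43.6 to 78.1 kb past the end of the gene. They lie in or beside the long noncoding RNA gene *C130071C03Rik*, and the start of a noncoding gene is nearer to each of them than one of *Mef2c*. Of the 7, 3 were lost and 1 gained in both clones.

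The strongest loss was the last of these, in an intron of the noncoding gene (chr13:83744767-83745613, 91.9 kb from the nearest *Mef2c* start site). Its ranks were 84.1, 82.4 and 81.4 in WT, with a fold enrichment of 17.4 to 18.5, and no KO library held a peak. The region at chr13:83730525-83731473 had ranks of 70.3, 67.7 and 64.4 in WT, and its neighbour at chr13:83729506-83730141 had 54.7, 31.1 and 37.7, again with no peak in any KO library. Both lie within 1 kb of the start of another noncoding RNA gene, *Gm26803*. Between the losses, the intronic region at chr13:83741560-83742472 had no peak in WT and ranks of 70.6, 64.2 and 59.1 in B10 and 35.9, 19.3 and 24.2 in G7. The gain and the strongest loss are neighbours, and both clones showed each of them.

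Of the others, a weak one (chr13:83710530-83710747) was gained in B10, with ranks of 15.6 and 10.5, and the remaining pair held a peak in every library. At chr13:83714937-83715785 ranks were 68.1 to 77.0 in WT, 70.9 to 74.4 in B10 and 64.7 to 70.4 in G7. At chr13:83724791-83725473 they were 45.7 to 53.3, 47.0 to 53.6 and 41.0 to 65.9. Neither passed the test in either clone. The next consensus region, 278.0 kb further on and credited to *Tmem161b*, held a peak in all 9 libraries, and in G7 it fell by 27.9 points (limma, adjusted p = 0.0165). The GC content of the summit windows was 66.7%, 76.6% and 54.2% for the losses and 40.8% for the gain in both clones. It was 59.2% and 59.7% for the pair with a peak in every library and 46.3% for the weak gain in B10. The median over all consensus regions was 49.3%.

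**Figure D4:**
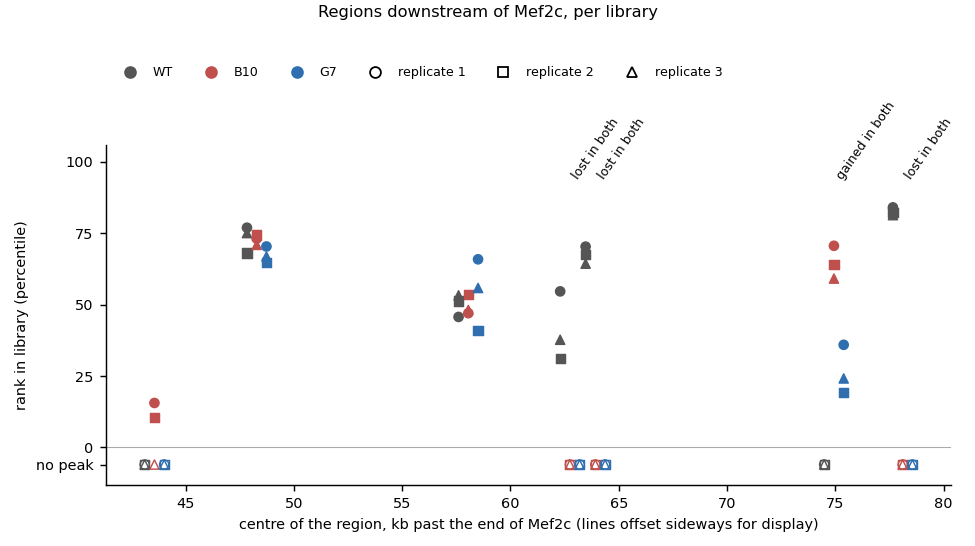
Rank in each library (y axis, percentile, open symbols at the bottom where no peak was called) of the 7 regions downstream of *Mef2c*, by the distance of their centre past the end of the gene (x axis, kb). WT is grey, B10 red and G7 blue, and symbols mark the replicates. WT alone has peaks at the 3 lost regions, with ranks of 31.1 to 84.1, and only the clones have peaks at the gained one.

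Of the *Mef2c* regions open in all libraries, 3 ranked higher in B10. At chr13:83481976-83482611, 21.4 kb upstream, ranks were 48.0, 43.3 and 34.2 in WT, 68.6, 67.4 and 62.5 in B10 and 51.5, 39.5 and 50.5 in G7. All B10 libraries lay above the others, by 24.3 ± 5.20 points from WT (limma, adjusted p = 0.0128). The others rose less, by 12.2 ± 3.45 at chr13:83460885-83462126 (41.9 kb upstream, adjusted p = 0.0395, limma) and by 9.85 ± 2.68 at chr13:83565489-83566649 (in an intron, adjusted p = 0.0338, limma). The former call was lost in 9 of 16 alternatives and the latter in 6 of 16, among them the fits without WT replicate 2 (adjusted p = 0.110 and 0.0837, limma) or without B10 replicate 2 (0.0624 and 0.116). At the intronic region B10 also exceeded G7, by 13.7 ± 2.68 points (limma, adjusted p = 0.0171). At 5 more *Mef2c* regions B10 exceeded G7 only with the replicate block, by 3.94 to 19.0 points (limma, adjusted p from 0.0608 to 0.135 without the block and from 0.00336 to 0.0277 with it).

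G7 fell at 1 shared *Mef2c* region, 301.2 kb upstream (chr13:83201861-83202819), by 26.3 ± 4.50 points (limma, adjusted p = 0.00734). Its ranks were 63.0, 60.0 and 61.9 in WT, 53.0, 45.2 and 56.5 in B10 and 32.3, 39.5 and 34.4 in G7, with no overlap between the lines. The call was kept in all 16 alternatives. The strongest *Mef2c* region, 610.2 kb upstream (chr13:82892693-82893853), had ranks of 88.3 to 95.3 over the 9 libraries, and its difference of -3.01 in G7 passed only with the replicate block (limma, adjusted p = 0.213, and 0.00901 with the block).

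Other gains in B10 were weaker, with ranks of 1.31 to 42.5. They lay 339.8 to 342.7 kb upstream in an intron of *2310067P03Rik* (3 regions, of which chr13:83163783-83164260 was also gained in G7 with ranks of 16.6 and 16.9), at 257.6 and 23.4 kb upstream, in introns of *Mef2c* (3 regions) and 57.6 kb downstream. Further regions were stronger in B10 without being called, since some WT libraries held peaks. At chr13:83360277-83361049, 143.0 kb upstream, ranks were 30.9 and 10.8 in WT replicates 1 and 3, 64.2, 61.1 and 66.4 in B10 and 40.9, 36.2 and 28.5 in G7. At chr13:83214808-83215589, 288.4 kb upstream, they were 21.4, 7.40 and 15.8 in WT, 67.0, 49.0 and 49.4 in B10, and 26.1 and 16.9 in G7 replicates 1 and 3. In G7, a region 1.8 kb past an internal start site (chr13:83531966-83532430) was gained with ranks of 19.2, 30.8 and 21.8, and one in an intron (chr13:83588287-83588526) was lost, with WT ranks of 22.9 and 24.8. Of 65 other regions within 2 Mb of *Mef2c*, 12 were gained in B10 (18.5%, against 14.9% of the chromosome). Shared regions across chromosome 13, without those of *Mef2c*, ranked higher in B10 by a median of 4.92 points. The part of this in the *Mef2c* calls was not tested.

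**Figure D5:**
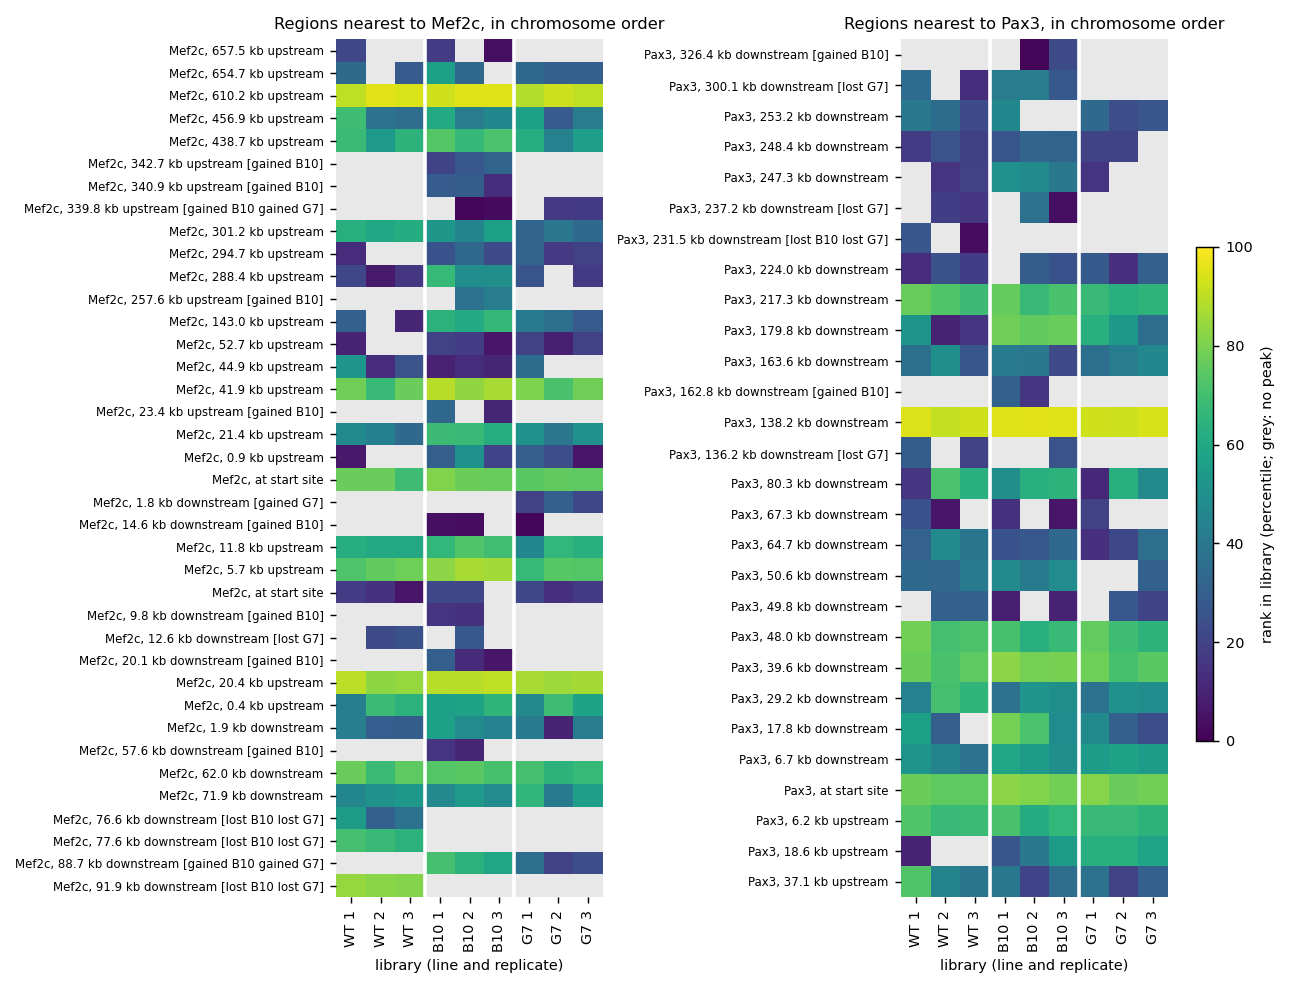
Rank of the best peak (colour, percentile within the library, grey where no peak was called) in each of 9 libraries (columns) for the 38 *Mef2c* and 28 *Pax3* regions (rows, in chromosome order, with the distance to the nearest start site of the gene and the presence calls). Most gained regions are dark (weak), while the *Mef2c* losses 77.6 and 91.9 kb downstream held ranks of 64.4 to 84.1 in WT.

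Among the structural genes, *Acta1* (chr8:123891769-123894751) encodes the actin of skeletal muscle fibres. All 3 of its regions lie downstream, in introns of the overlapping gene model *Gm20388*. At chr8:123884214-123885250, 9.5 kb from the start site, ranks were 79.1, 73.8 and 81.1 in WT, 65.0, 58.9 and 61.4 in B10 and 52.0, 56.4 and 53.9 in G7. No library of one line overlapped another line, and the region fell by 16.2 ± 3.52 points in B10 and by 23.9 ± 3.52 in G7 (limma, adjusted p = 0.0136 and 0.00398). Neither fall passed on the log2 fold enrichment (-0.12 and -0.49, limma adjusted p = 0.638 and 0.0951), and that in B10 did not pass without WT replicate 3 (adjusted p = 0.0647) or B10 replicate 2 (0.0540). At chr8:123887936-123888647, 6.1 kb from the start site, ranks were 78.5, 80.2 and 80.2 in WT, 44.7, 63.9 and 54.4 in B10 and 68.2, 76.3 and 64.5 in G7. Both clones lay below WT without overlap, and the fall by 25.3 ± 5.01 in B10 passed (limma, adjusted p = 0.00914), whereas the difference in G7 did not (-9.95 ± 5.01, limma adjusted p = 0.245). B10 minus G7 was -15.3 ± 5.01 there (limma, adjusted p = 0.104, and 0.0156 with the replicate block). On the log2 fold enrichment the fall in B10 was -0.43 (limma, adjusted p = 0.131).

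The third *Acta1* region (chr8:123891259-123891716) was lost in G7, with a rank of 53.7 in each of WT replicates 1 and 3 and of 35.8 in B10 replicate 1. Around *Acta1*, more regions ranked higher than lower in both clones. Of 169 other shared regions within 2 Mb of *Acta1*, 41 ranked higher and 6 lower in B10, and 38 and 3 in G7. Their medians were 3.19 and 3.99 points. Chromosome 8 as a whole, without the *Acta1* regions, had medians of 3.87 and 4.18 points over 2303 shared regions. There 529 ranked higher and 66 lower in B10, and 485 and 45 in G7. Over all shared regions, 11% ranked higher and 5.37% lower in B10, and 5.39% and 4.82% in G7.

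*Des* (chr1:75360329-75368579), which encodes the intermediate filament of muscle, had a region 1.3 kb past its start site, inside the gene (chr1:75361607-75362248). Ranks were 70.5, 73.4 and 75.0 in WT, 70.3, 76.9 and 78.0 in B10 and 64.1, 60.0 and 61.5 in G7. G7 lay below both other lines without overlap. B10 exceeded G7 by 13.2 ± 3.16 points (limma, adjusted p = 0.0385), and the difference of G7 from WT was -11.1 ± 3.16 (limma, adjusted p = 0.0549, and 0.0173 with the replicate block). A region 2.5 kb upstream (chr1:75357364-75357802) was lost in G7, with ranks of 47.8, 33.9 and 12.0 in WT and 31.7 and 10.4 in B10, and the one 17.1 kb upstream (chr1:75342794-75343272) held ranks of 64.9 to 76.2 in all libraries. Shared regions across chromosome 1, without those of the muscle genes, had a median difference of -2.38 points in G7. Those of them within 2 Mb of *Des* had one of -3.01. The part of this in the *Des* values was not tested.

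*Myh3* (chr11:67078300-67102291) encodes the myosin of embryonic and regenerating fibres. Of its 8 regions, 4 were open in all libraries, with ranks of 24.0 to 68.4, and none of them passed the test in either clone (limma, adjusted p from 0.345 to 0.981). The gains were weak, with ranks of 1.52 and 3.61 in B10 at chr11:67120945-67121164 and of 16.6 and 33.3 in G7 at chr11:67101648-67102163. No *Myh3* region was lost.

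Across the 93 summit windows, the share with each motif was near that of all consensus regions for AP-1 (21 windows, 22.6%, against 22.4%), TEAD (14, 15.1%, against 16.1%), SOX (5, 5.38%, against 5.34%) and CAGCTG (13, 14.0%, against 14.6%). The MEF2 motif was found in 2 windows (2.15%, against 0.591%), both near *Mef2c* and neither in a gained or lost region. Of the regions lost in either clone, 5 of 14 held the AP-1 motif, 1 the TEAD motif, 1 CAGCTG and 0 the SOX motif. Of the 18 gained, 2 held AP-1, 4 TEAD, 1 CAGCTG and 3 SOX. Several windows of 1 gene share a locus, so these shares are descriptions.

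The wider muscle program was read at the start sites of listed genes. Regulators upstream of the MyoD family had a consensus region within 1 kb of a start site in 8 of 10 genes, and their cofactors in 10 of 10. Among inhibitors of myogenesis this held for 8 of 11 genes, among fusion and early muscle genes for 3 of 10, and among sarcomere and muscle metabolism genes for 12 of 25. Over all protein-coding genes the share was 59.8%. The strongest in WT included *Carm1* (98.6 to 98.8), a coactivator of muscle factors, *Hdac4* (98.3 to 99.3), a repressor of MEF2 proteins, and *Mylpf* (97.4 to 98.6), a fast muscle myosin light chain. None of these passed the test in either clone. Of the other strong start sites, *Id1*, an inhibitor of MyoD family proteins, in G7 fell by 3.97 ± 0.918 points (limma, adjusted p = 0.0255), from WT ranks of 92.5 to 95.1.

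Among the regulators, *Eya1*, a transcriptional coactivator in muscle precursors, stood out by its losses. Its region at chr1:14309464-14310393 had ranks of 72.3, 75.0 and 72.8 in WT and no peak in any KO library, and a second one (chr1:14304557-14304955) had ranks of 28.0, 37.1 and 23.4 in WT and none in KO. *Eya2* had a weak region lost in both clones, with WT ranks of 7.40 and 12.1. At *Met*, the receptor that guides migrating muscle precursors, an internal start site (chr6:17490650-17491334) rose from 58.0, 51.1 and 46.7 in WT to 86.2, 85.8 and 81.9 in B10 and 71.7, 71.2 and 69.7 in G7. The rises were 32.7 ± 3.47 and 19.0 ± 3.47 points (limma, adjusted p = 0.000576 and 0.00993). At *Tnnt3*, a fast muscle troponin (chr7:142496716-142498396), ranks of 51.1, 43.0 and 41.0 in WT rose by 26.1 ± 3.83 points in B10 and by 31.9 ± 3.83 in G7 (limma, adjusted p = 0.00239 and 0.00162).

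Over all regions near the listed genes, presence calls in both clones are to be read against 2.97% gained and 4.36% lost of all regions. Of 117 regions near the upstream regulators 5 were gained and 5 lost, of 86 near cofactors 3 and 3, of 133 near inhibitors 3 and 4, of 40 near fusion genes 0 and 2, and of 70 near sarcomere genes 2 and 3. In the same order, 3 of 35, 2 of 51, 2 of 65, 0 of 27 and 2 of 30 shared regions ranked higher in both clones. None ranked lower in both. Over all shared regions, 3.81% ranked higher and 1.66% lower in both clones. These counts were not tested against other genes.

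The labelled cell type was checked with markers. A consensus region lay within 1 kb of a start site in 7 of 8 mesenchymal markers, against 59.8% of all protein-coding genes. WT ranks were 96.0 to 97.2 at *Fn1* and 88.0 to 92.7 at *Vim*. Most smooth muscle and endothelial genes below had such a region too, so the count alone does not mark the cell type. In G7 *Fn1* fell by 2.56 points and *Col1a2* rose in B10 by 5.95 (limma, adjusted p = 0.0440 and 0.0274). Of the 73 shared regions near these markers, 9 ranked lower in G7, against 4.82% of all shared regions. Of the smooth muscle genes, 6 of 8 had a consensus region within 1 kb of a start site. At *Acta2*, the smooth muscle actin, ranks were 76.5, 66.7 and 59.4 in WT and 88.8, 86.1 and 83.0 in B10. The rise in B10 was 18.4 ± 4.53 points (limma, adjusted p = 0.0231). In G7 the ranks were 49.4, 56.3 and 57.6 (limma, adjusted p = 0.100). The epithelial and blood lists each had 1 of 3 genes with such a region, with WT ranks of at most 48.6 at *Krt8* and 41.0 at *Spi1*. Both endothelial markers had one, a weak region at *Cdh5* in 2 B10 libraries and one at *Pecam1* with WT ranks of 50.6, 69.2 and 60.5. Of the 29 regions near these endothelial genes, 9 were gained in B10 and 0 in G7, against 10.4% and 5.69% of all consensus regions. Of 9 shared ones, 3 ranked higher in B10 and 5 lower in G7, against 11% and 4.82% of all shared regions. The part of these in the results near muscle genes was not tested.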

How the data were processed

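Omni-ATAC libraries of C3H/10T1/2 cells (3 each of WT, B10 and G7) were sequenced, aligned to mm10 and passed to MACS2 library by library by the authors, who deposited 1 narrow peak list per library. The MACS2 version is not given in the sources used here, and the ATAC-seq methods do not mention a blacklist. Each deposited list gives, from MACS2, an integer score, a fold enrichment over the local background, and the −log10 p-value and −log10 q-value of each peak. No read counts were used, and the depth of each library is unknown.

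Touching peaks of the 9 lists were merged into 135835 regions, and 97338 with a peak in at least 2 of 3 libraries of any line were kept. Each was given to the nearest GENCODE M21 protein-coding start site. The best −log10 q was turned into a percentile within its library. Ranks at the 47431 regions with a peak in all 9 libraries were fitted with limma 3.58.1 (R 4.3.3, empirical Bayes with a trend, 1 mean per line), with Benjamini-Hochberg adjustment over all regions and a threshold of 0.05. The fit was tested on simulated ranks. Python 3.11.15, pandas 2.3.3 and numpy 2.4.6 did the rest. Motifs were searched on both strands of 201-base windows around the median summit, and matches may overlap. Gene coordinates are those of GENCODE M21 on mm10.

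The members and lists were chosen with earlier results of these data known. For each of the 10 genes the text names the region at or nearest its start site, every gained or lost region and every shared region past the threshold. Of other lists, up to 4 genes with the highest WT rank at a start site were eligible, plus those called in both clones. Regions named beyond this rule were chosen after their values were seen. They are those not called near *Myod1*, *Pax3* and *Mef2c*, and the *Des* region 17.1 kb upstream. The others are the shared regions in the stretch downstream of *Mef2c*, the next region past it and those that passed only with the replicate block.

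Same-numbered libraries of different lines deviated together from their line means (correlations of 0.31 to 0.66 in 9 pairs, against -0.56 to 0.31 in the 18 pairs of different numbers). Deviations from a line mean sum to 0, so part of this contrast is built in. Every negative value involved replicate 1, while pairs of replicate 2 with replicate 3 had 0.21 to 0.31. By the correlations alone, since the labels state no shared day, the numbers were taken to pair the libraries, and the fit with the replicate number as a block is given where it changes a call. Alternatives were an equal number of peaks per library, a −log10 q of at least 5, a coverage of 25% of a region, nearness from the centre, a limit of 100 kb, each library left out, replicate 1 only, replicates 2 and 3 only, log2 fold enrichment, absent peaks at rank 0 and no variance trend.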

Additional observations from a re-analysis of the deposited data

Results flagged for a closer look

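At 3 muscle gene regions the clones differed from each other in the limma fit. At the *Myod1* region 38.1 kb upstream, B10 minus G7 was -33.5 percentile points (SE 3.81, adjusted p = 0.00162), with both clones above WT. At the *Mef2c* intronic region chr13:83565489-83566649 it was 13.7 (SE 2.68, adjusted p = 0.0171), where B10 ranked at 82.6 to 86.9 and G7 at 67.1 to 74.0. At the *Des* region inside the gene it was 13.2 (SE 3.16, adjusted p = 0.0385), where B10 ranked at 70.3 to 78.0 and G7 at 60.0 to 64.1. Each clone is 1 line made with its own guide RNA, so a difference between the clones cannot be told apart from one between their edits.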

How the results depend on the processing

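The 10 differences from WT that passed the test at member regions were recomputed under 16 alternatives each, and none changed direction. Some alternatives cannot change a difference at these regions, so the direction there was fixed in advance. They are the replicate block, no variance trend, the rule for absent peaks and leaving out a library of the other clone. Of the 160 values 139 kept their side of the threshold and 21 did not. Most of the calls lost were those of the *Mef2c* regions 41.9 and 5.7 kb upstream in B10.

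Counts of gained and lost regions moved as follows. Gains in both clones numbered 5 of 81 with a −log10 q of at least 5 (2.75% of all regions), and 6 of 81 with replicates 2 and 3 only (3.48%). Gains in B10 numbered 9 of 85 with equal peaks per library (8.28%) and 9 of 66 within 100 kb of a start site (8.61%). With replicate 1 only, where presence rests on 1 library per line, 113 regions were counted, with 5 gained and 14 lost in both clones (7.06% and 10.0% of all), 32 gained and 16 lost in B10 (20.9% and 14.5%) and 22 lost in G7 (15.2%).

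With the replicate block, 4 shared regions ranked lower in B10, 2 higher in G7 and 6 lower in G7, beside 7 higher in B10, and the block changed no call other than those given above. With log2 fold enrichment, 3 ranked higher and 0 lower in B10 and 1 lower in G7 (limma, against 3.47%, 3.00% and 1.20% of all shared regions). On that scale 4 were higher and 4 lower in B10, and 3 higher and 4 lower in G7, at an unadjusted limma p under 0.05. The share over all shared regions at that unadjusted threshold was not computed. With absent peaks at rank 0 all 93 regions were tested, of which 15 ranked higher and 7 lower in B10 (11.6% and 6.57% of all regions), and 5 higher and 8 lower in G7 (4.62% and 5.67%). Equal peaks per library gave 3 higher in B10, against 8.86% of all shared regions. Replicates 2 and 3 alone gave 2 higher and 5 lower in G7 (9.60% and 8.64%). The limit of 100 kb gave 1 lower in G7, against 4.82% of all shared regions at any distance.

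Leaving out 1 library at a time, the ranges were 7 to 20 for gains in B10, 3 to 10 for gains in G7 and 1 to 7 for gains in both. They were 4 to 9 for losses in B10, 5 to 17 for losses in G7 and 3 to 7 for losses in both. Shared regions numbered 3 to 6 higher and 1 to 3 lower in B10, and 1 to 2 higher and 2 to 5 lower in G7. The share over all regions moved as well. Without WT replicate 1, where B10 had its 20 gains, 15.9% of all regions were gained in that clone. Without B10 replicate 2, where it had 7, the share was 6.41%. The 9 losses in B10 arose without B10 replicate 1 or 2 (9.38% and 10.4% of all regions). The 17 losses in G7 arose without G7 replicate 1 (9.23%), and the 5 without WT replicate 3 (4.15%). For the changes that the alternative's own construction does not show, the cause was not tested. The depth of each library was not given, so how far it limits presence calls was not tested.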
